A study of Mus musculus with 9 samples.

Results

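The transcripts described here are 41 genes of glucose breakdown and of the response to low oxygen, taken by gene symbol from an RNA-seq study of D2A1-d cells. They comprise 25 glycolytic genes (glucose and lactate transporters, the enzymes of the pathway and their regulators) and 16 genes of the hypoxia-inducible factor (HIF) system (factor subunits, prolyl hydroxylases and other target genes). All 41 symbols were found among the 55335 gene identifiers measured, and 38 of them passed the filter on low counts that left 14335 genes for testing. The cells are a mouse mammary carcinoma line, grown here in medium with serum and labelled untreated, from a study of metastatic dormancy. The cells were transduced with the hairpin shMed4 #1, the hairpin shMed4 #4 or a non-targeting control hairpin (NTC), with 3 libraries in each group, and the labels give the hairpin groups as Med4 knockdown and the NTC group as wild type. The protein Med4 belongs to Mediator, a large coactivator that bridges enhancer-bound factors and the transcription machinery. The comparison asks what happens to these genes when Med4 is lowered, and whether both hairpins give the same picture.

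Libraries held 7572114 to 8582235 reads assigned to genes. Levels are given as CPM, which stands for read counts brought to one library size by TMM, and p-values come from edgeR and are adjusted over all genes tested. Med4 was at 4.97, 4.23 and 4.40 CPM with shMed4 #1 and at 8.05, 7.45 and 6.13 CPM with shMed4 #4, against 29.4, 27.9 and 25.04 CPM in NTC libraries. Nothing in the labels tells whether each replicate was a transduction of its own, and p-values therefore cover only the variation among these 9 libraries. RNA came from bulk cultures, in which fewer cells of a type and less RNA per cell cannot be told apart. Of the luminal epithelial markers, Cdh1 had 0 reads in every library, and the summed level of the 5 genes, nearly all from Krt8 and Krt18, was 93.7 to 111 CPM with shMed4 #1, 175 to 201 CPM with shMed4 #4 and 23.5 to 25.04 CPM in NTC. The 3 fibroblast markers, nearly all Pdgfra, summed to 73.4 to 82.0 CPM with shMed4 #1, 52.8 to 64.8 CPM with shMed4 #4 and 123 to 131 CPM in NTC, and the 5 leukocyte markers, with Cd3e at 0 reads, to 1.86 to 2.78, 1.12 to 2.56 and 3.73 to 7.73 CPM in the same groups. The 3 endothelial markers summed to 2.49 to 3.93 CPM with shMed4 #1, 1.83 to 3.10 CPM with shMed4 #4 and 0.904 to 1.74 CPM in NTC, the 3 basal markers to at most 1.69 CPM and the 2 erythroid markers to at most 1.23 CPM in any library. The 3 mesenchymal markers summed to 4568 to 4735 CPM with shMed4 #1, 4182 to 4821 CPM with shMed4 #4 and 4581 to 4962 CPM in NTC, with overlap between the groups. The part of the marker differences in the results below was not tested.

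Glycolysis turns glucose into pyruvate in the cytosol. Hexokinase traps the sugar, phosphofructokinase commits it to breakdown, and lactate dehydrogenase turns pyruvate into lactate, which leaves through monocarboxylate transporters. Many of these genes are also targets of HIF, a transcription factor with an oxygen-sensitive alpha subunit (Hif1a or Epas1) that prolyl hydroxylases (Egln1, Egln3 and relatives) mark for destruction when oxygen is present. HIF binds a short DNA core, ACGTG or GCGTG, in its target genes. Carcinoma cells often run glycolysis and parts of the HIF programme even in normal oxygen.

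To show where that core lies, 5 upstream regions are printed. They belong to 4 genes that were lower and 1 that was higher with both hairpins, picked after their values were seen from members with a mean log2 change of at least 0.5 in size. Each is the 250 bases before the RefSeq gene start (GRCm38.p6), 5' to 3' along the gene. Capitals mark ACGTG or GCGTG on either strand, so that CACGT and CACGC are the same cores read from the other strand. The windows are chr7:138909507-138909756 (minus strand) for Bnip3, chr12:54203875-54204124 (minus strand) for Egln3, chr2:71872974-71873223 (plus strand) for Pdk1, chrX:106186850-106187099 (plus strand) for Pgk1 and chr6:82774455-82774704 (minus strand) for Hk2.
Bnip3: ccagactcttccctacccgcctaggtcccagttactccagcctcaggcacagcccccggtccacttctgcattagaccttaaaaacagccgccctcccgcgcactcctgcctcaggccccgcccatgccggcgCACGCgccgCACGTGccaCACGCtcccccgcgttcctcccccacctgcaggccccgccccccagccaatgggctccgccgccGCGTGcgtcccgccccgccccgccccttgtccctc
Egln3: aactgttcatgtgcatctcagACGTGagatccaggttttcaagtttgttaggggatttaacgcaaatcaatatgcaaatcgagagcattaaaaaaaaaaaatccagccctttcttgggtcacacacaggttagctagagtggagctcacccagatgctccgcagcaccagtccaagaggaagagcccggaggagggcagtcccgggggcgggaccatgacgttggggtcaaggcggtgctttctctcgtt
Pdk1: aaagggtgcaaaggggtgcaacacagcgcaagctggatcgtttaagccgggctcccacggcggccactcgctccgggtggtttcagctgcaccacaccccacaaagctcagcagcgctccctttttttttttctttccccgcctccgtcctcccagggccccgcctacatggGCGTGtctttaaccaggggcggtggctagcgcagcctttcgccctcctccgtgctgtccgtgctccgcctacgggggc
Pgk1: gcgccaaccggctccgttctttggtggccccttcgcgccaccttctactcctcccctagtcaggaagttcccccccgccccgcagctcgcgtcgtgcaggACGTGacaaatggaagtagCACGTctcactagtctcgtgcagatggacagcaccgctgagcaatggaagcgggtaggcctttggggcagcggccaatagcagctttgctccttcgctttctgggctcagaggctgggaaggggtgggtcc
Hk2: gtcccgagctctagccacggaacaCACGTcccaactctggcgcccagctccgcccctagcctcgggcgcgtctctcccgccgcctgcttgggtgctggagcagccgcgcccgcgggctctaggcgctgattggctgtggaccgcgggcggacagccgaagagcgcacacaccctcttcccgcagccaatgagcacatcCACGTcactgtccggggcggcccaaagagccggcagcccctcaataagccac
In the Bnip3 window one ACGTG lies within CACGTG, which holds that core on both strands. Other members past the same size were not printed. Of these, Mxi1 has neither core in its window, and Pfkl and Pfkfb4 have 1 GCGTG each and no ACGTG. Of the 41 members, 37 had an entry in the RefSeq promoter table (Slc2a3, Epas1, Bnip3l and Ndrg1 had none). ACGTG occurred on either strand in 19 of these 37 windows, or 51.4%, against 22.1% of the 9870 windows of all tested genes with an entry. ACGTG or GCGTG occurred in 30 of 37, or 81.1%, against 57.4% of the 9870. The members were listed as glycolytic genes and HIF targets, so a higher share may come with the list and is no result of the counts. Among the members, ACGTG was found in 7 of 13 windows of genes lower with the mean of both hairpins and in 6 of 11 of genes that were higher. It was also found in 6 of 11 windows of tested genes that did not pass the threshold. A match is a stretch of letters and does not show binding.

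The members moved in both directions. With shMed4 #1 against NTC, 10 of the 38 tested members rose and 15 fell at an edgeR adjusted p under 0.05, where 21.8% of all genes tested rose and 19.8% fell (41.6% in either direction). With shMed4 #4 against NTC, 14 rose and 14 fell, where 27.8% of all genes rose and 27.3% fell (55.1% in either direction). For the mean of both hairpins against NTC, 13 rose and 14 fell, where 26.8% and 26.5% of all genes did (53.3% in either direction). The median log2 fold change of the tested members was -0.06 with shMed4 #1 and -0.06 with shMed4 #4, and that of all genes tested was -0.01 with each. Once the median log2 fold change of the 25 tested genes on each side of a gene on the chromosome was taken off, 7 members rose and 16 fell with shMed4 #1, 7 rose and 19 fell with shMed4 #4, and 8 rose and 19 fell for the mean of both. The median of the members was then -0.09 with shMed4 #1, -0.28 with shMed4 #4 and -0.16 for the mean. Of the 14335 genes tested, 2697 then rose and 2237 fell with shMed4 #1, 3701 rose and 3406 fell with shMed4 #4, and 3445 rose and 3182 fell for the mean, and the median over all of them was -0.0009, -0.001 and -0.003 in the same order. Both hairpin comparisons use the same NTC libraries, so their directions are not independent of each other.

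Past the threshold with each hairpin, 13 members were lower with both, against 15.8% of all genes, and 8 were higher with both, against 17.4%. With a mean log2 fold change of at least 0.5 in size as well, 6 were lower (Pfkl, Pgk1, Pdk1, Egln3, Bnip3 and Mxi1), against 8.02% of all genes, and 3 were higher (Hk2, Pfkfb4 and Epas1), against 7.86%. Opposite directions were found for 2 members, Gapdh and P4ha2, against 0.788% of all genes. Of the remaining members, 2 passed with shMed4 #1 alone, 5 with shMed4 #4 alone and 8 with neither. All 6 knockdown libraries lay below all 3 NTC libraries for 12 members and above them for 8, where 18.3% and 19.5% of all genes did so. Among the glycolytic genes, 8 of 23 tested were lower and 5 were higher with both hairpins. Among the HIF genes, 5 of 15 tested were lower and 3 were higher with both.

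**Figure D1:**
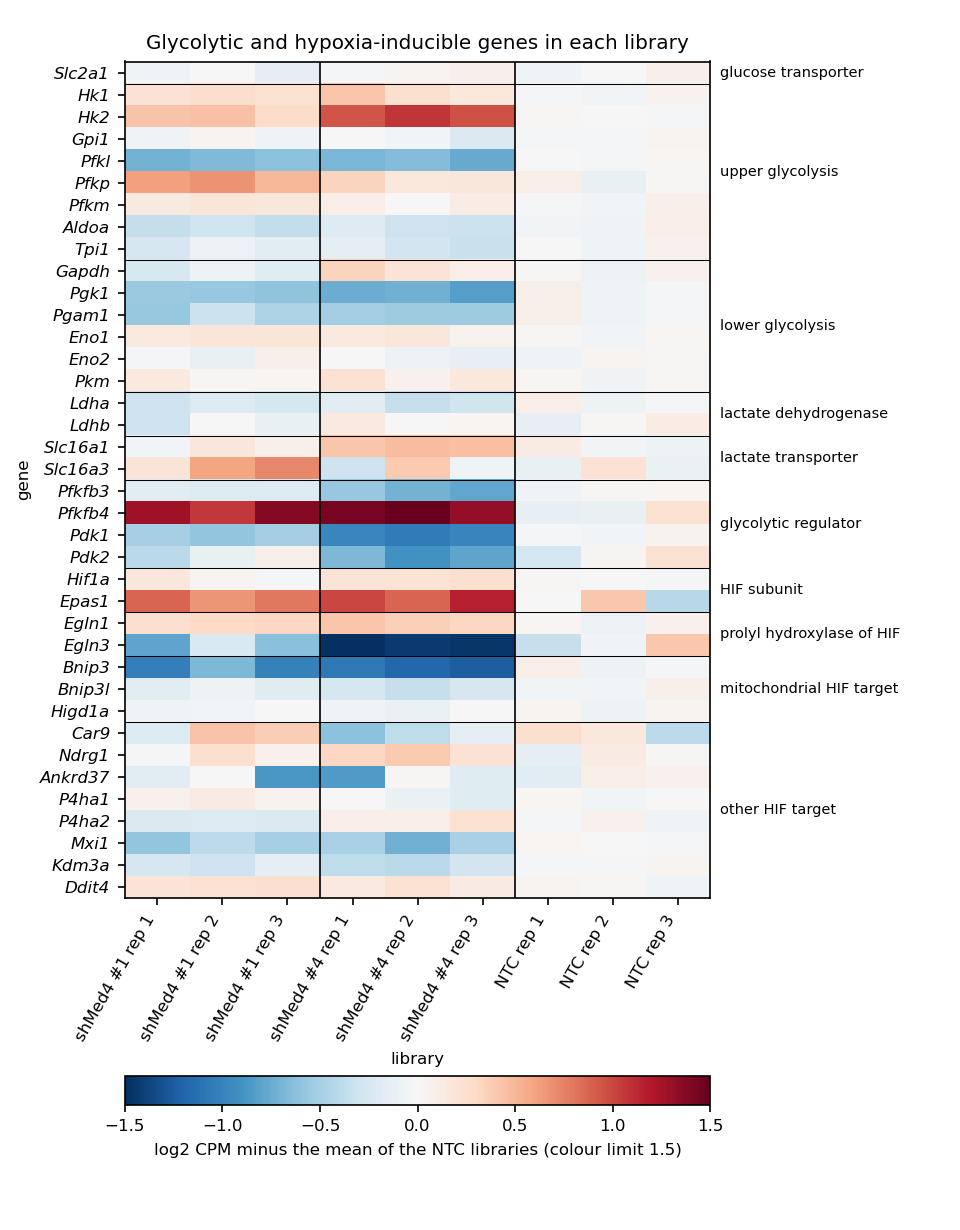
Level of the 38 tested members (rows, by role) in each of the 9 libraries (columns), as log2 CPM minus the mean of the NTC libraries, with colours limited at 1.5. Pfkl, Pgk1, Pdk1, Bnip3 and Mxi1 are lower in all 6 knockdown libraries than in every NTC library, while Hk2, Pfkfb4 and Epas1 are higher in all 6.

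Glucose entry is served by facilitative transporters. Slc2a1, the widespread form, gave a mean log2 fold change of -0.02 with a 95% interval of -0.12 to 0.08 (edgeR adjusted p = 0.751). Slc2a3, the high-affinity form typical of neurons, was not tested, with 2, 1 and 0 reads with shMed4 #1, 1 read in each shMed4 #4 library and 0 reads in each NTC library. Over the NTC group 0 reads allows a level of up to 0.125 CPM (3 reads over the group, counting error only).

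At the hexokinase step both tested isozymes rose. Hk2 (ENSMUSG00000000628.10, chromosome 6, 82725025 to 82774454 in GRCm38), the inducible mitochondria-associated hexokinase of many tumours, was at 44.5, 45.0 and 40.2 CPM with shMed4 #1 and at 63.8, 69.5 and 64.2 CPM with shMed4 #4, against 33.6, 33.5 and 32.5 CPM in NTC. None of the 3 groups overlapped. Hk2 rose by a log2 fold change of 0.38 with shMed4 #1 (SE 0.08, edgeR adjusted p = 0.000142) and of 0.99 with shMed4 #4 (SE 0.07, edgeR adjusted p = 3.43e-14). The difference between the hairpins was 0.61 (SE 0.07, edgeR adjusted p = 1.3e-08). Hk1, the constitutive form, rose by 0.24 with shMed4 #1 and 0.28 with shMed4 #4 on the log2 scale. The call of Hk1 with shMed4 #4 was lost (0.12) once that local chromosomal median was taken off. Per kilobase of exon, Hk2 made up 36.3% of the sum of both with shMed4 #1, 45.8% with shMed4 #4 and 34.0% in NTC, and the shMed4 #1 libraries, at 34.8 to 37.2%, met the top of the NTC range of 32.8 to 34.8%. The size of this share depends on the length used. With the longest transcripts in place of merged exons it was 23.6% with shMed4 #1, 31.5% with shMed4 #4 and 21.9% in NTC.

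At phosphofructokinase, the committed step, the subunits moved in different directions. Pfkl (ENSMUSG00000020277.10, chromosome 10, 77986947 to 78010083), the liver-type subunit, was at 119, 123 and 128 CPM with shMed4 #1 and at 121, 124 and 115 CPM with shMed4 #4, against 194, 193 and 198 CPM in NTC. The hairpin groups overlapped each other and neither overlapped NTC. Pfkl fell by 0.66 (SE 0.05, edgeR adjusted p = 5.33e-13) with shMed4 #1 and by 0.70 (SE 0.05, edgeR adjusted p = 5.57e-14) with shMed4 #4 on the log2 scale. Pfkp, the platelet-type subunit, rose by 0.59 with shMed4 #1 and by 0.22 with shMed4 #4, a difference between hairpins of -0.37 (edgeR adjusted p = 0.000148). The rise of Pfkp with shMed4 #4 was lost without NTC replicate 2 and without shMed4 #4 replicate 1, with a log2 fold change of 0.17 in each case. Pfkm, the muscle-type subunit, gave 0.16 with shMed4 #1 (edgeR adjusted p = 0.0205) and 0.07 with shMed4 #4 (edgeR adjusted p = 0.294), and the 25 tested neighbours on each side of it had a median log2 fold change of 0.21 and 0.39. Once that local median was taken off, Pfkm gave -0.05 with shMed4 #1 and -0.32 with shMed4 #4. The Pfkm call with shMed4 #1 was also lost without NTC replicate 1 (0.15) or 2 (0.14) and without shMed4 #1 replicate 2 (0.16) or 3 (0.16).

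Per kilobase, Pfkl made up 32.4% of phosphofructokinase transcripts with shMed4 #1 and 33.7% with shMed4 #4, against 46.7% in NTC. Pfkm made up 59.4% with shMed4 #1 and 59.5% with shMed4 #4, against 48.3% in NTC. The single libraries did not overlap between knockdown and NTC for either subunit. Lengths of the longest transcripts in place of merged exons moved the Pfkl share to 41.6% with shMed4 #1, 43.2% with shMed4 #4 and 56.8% in NTC. They moved the Pfkm share to 49.4% with shMed4 #1, 49.4% with shMed4 #4 and 38.1% in NTC.

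**Figure D2:**
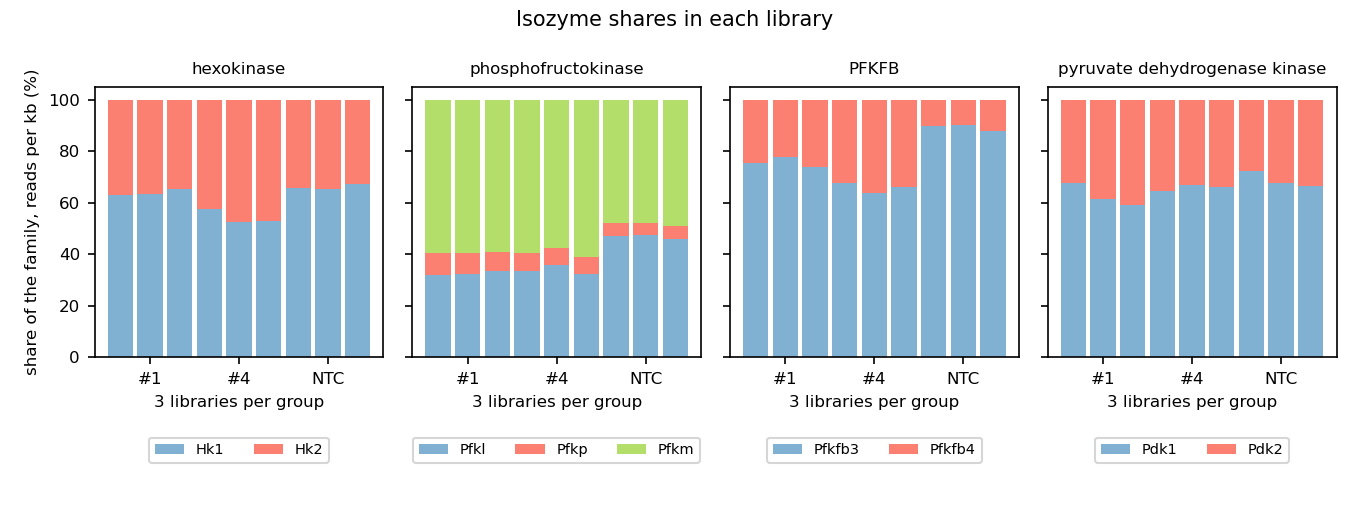
Share of each isozyme in its family's reads per kilobase (percent) in each library, as stacked bars for hexokinase, phosphofructokinase, the PFKFB enzymes and pyruvate dehydrogenase kinase, with 3 libraries each for shMed4 #1, shMed4 #4 and NTC. The Pfkl share is 32.0 to 35.6% in the 6 knockdown libraries and 46.0 to 47.4% in NTC, and the Pfkfb4 share is 22.3 to 36.3% in the knockdown libraries and 9.9 to 12.1% in NTC.

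The next steps of the upper pathway moved less. Aldoa, the main aldolase here, fell by 0.34 with shMed4 #1 and 0.28 with shMed4 #4 on the log2 scale, and Tpi1, which interconverts the triose phosphates, fell by 0.17 and 0.25 in the same order. With the local median removed, Tpi1 gave -0.19 with shMed4 #1 and -0.46 with shMed4 #4. The fall of Tpi1 with shMed4 #1 was lost without NTC replicate 3 (-0.14) and without shMed4 #1 replicate 1 (-0.13). Gpi1, the glucose phosphate isomerase, gave a mean log2 fold change of -0.05 (edgeR adjusted p = 0.357). Aldoc, the brain-type aldolase, was not tested, with 2, 3 and 4 reads with shMed4 #1, 4, 0 and 5 with shMed4 #4 and 5, 2 and 0 in NTC.

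In the lower pathway Pgk1 and Pgam1 fell with both hairpins. Pgk1 (ENSMUSG00000062070.12, chromosome X, 106187100 to 106203699), the kinase that forms the first ATP of the pathway, was at 569, 562 and 551 CPM with shMed4 #1 and at 499, 506 and 471 CPM with shMed4 #4, against 890, 800 and 817 CPM in NTC. None of the groups overlapped. The log2 fold change was -0.58 (SE 0.05, edgeR adjusted p = 3.75e-12) with shMed4 #1 and -0.76 (SE 0.05, edgeR adjusted p = 7.32e-16) with shMed4 #4. The difference between hairpins was -0.19 (edgeR adjusted p = 0.00397), or -0.07 and below the threshold once the local chromosomal median was removed. Pgam1, the mutase that follows, fell by 0.45 with shMed4 #1 and 0.53 with shMed4 #4. Counts of both are uncertain, since 53.9% of the 50-base windows of Pgk1 exons and 36.2% of those of Pgam1 occur at other loci and reads aligned to several places were not counted. Such alignments made up 10.5 to 11.1% of the records in the knockdown libraries and 11.2 to 11.6% in NTC libraries, and the part of this in the falls was not tested.

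Gapdh (ENSMUSG00000057666.18, chromosome 6, 125161715 to 125166467), the dehydrogenase often used as a loading control, moved in opposite directions. It was at 1307, 1468 and 1365 CPM with shMed4 #1 and at 1951, 1767 and 1662 CPM with shMed4 #4, against 1573, 1458 and 1622 CPM in NTC. The shMed4 #1 libraries overlapped NTC and the shMed4 #4 libraries lay above it. The log2 fold change was -0.17 (SE 0.06, edgeR adjusted p = 0.013) with shMed4 #1 and 0.21 (SE 0.06, edgeR adjusted p = 0.00149) with shMed4 #4. The fall with shMed4 #1 was lost without NTC replicate 3 (-0.14) and without shMed4 #1 replicate 1 (-0.13). The rise with shMed4 #4 became -0.06 once the local chromosomal median was taken off, where the tested neighbours had a median of 0.27. The difference between hairpins, 0.38, was 0.18 with the local median removed.

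The last enzymes of the pathway changed by at most 0.17 on the log2 scale. Eno1, the main enolase, rose by 0.17 with shMed4 #1 and 0.13 with shMed4 #4, and the call with shMed4 #4 was lost without NTC replicate 2 (0.10) and without shMed4 #4 replicate 2 (0.11). With the local median removed, Eno1 gave 0.11 with shMed4 #1 and 0.08 with shMed4 #4, both below the threshold. Eno2, the neuronal enolase, gave a mean log2 fold change of -0.04 (edgeR adjusted p = 0.66). Pkm, pyruvate kinase, gave 0.07 with shMed4 #1 (edgeR adjusted p = 0.308) and 0.15 with shMed4 #4 (edgeR adjusted p = 0.0113), against a median of 0.18 over its neighbours with shMed4 #4, and -0.03 with that hairpin once the local median was removed. That call was also lost without NTC replicate 2 (0.12) and without shMed4 #4 replicate 1 (0.12).

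Levels per kilobase of merged exon (RPKM, TMM-scaled) compare the transcripts of the pathway, but their order depends on the length used. Eno1 has 5379 bases of merged exon and 2027 in its longest transcript. Pgk1 has 2244 and 1825, and Gapdh 4133 and 3289. The order and the sums below hold for merged exons only. Windows found at other loci make the counts of Eno1, Pgk1 and Gapdh uncertain as well. With shMed4 #4, Pkm was at 452 ± 27.0 RPKM, Gapdh at 434 ± 35.3 and Pgk1 at 219 ± 8.19, so that Pgk1 lay below Eno1 at 259 ± 10.4 (SD, n = 3). In NTC, Pkm was at 407 ± 13.7 RPKM, Gapdh at 375 ± 20.3 and Pgk1 at 372 ± 21.2 (SD, n = 3), and Gapdh and Pgk1 lay within each other's spread, above Eno1 at 237 ± 6.67. Summed over 17 glycolytic enzymes, the level was 2127 ± 44.6 RPKM with shMed4 #1 and 2207 ± 107 RPKM with shMed4 #4, against 2399 ± 87.6 RPKM in NTC (SD, n = 3 each). The shMed4 #1 libraries, at 2096, 2178 and 2106 RPKM, lay below all NTC libraries. The shMed4 #4 libraries, at 2329, 2165 and 2128 RPKM, overlapped NTC, at 2454, 2298 and 2446 RPKM. Without Pgk1, whose count is uncertain, the sum was 1877 ± 44.6 RPKM with shMed4 #1 and 1988 ± 103 RPKM with shMed4 #4, against 2027 ± 74.7 RPKM in NTC (SD, n = 3 each).

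At the lactate step, Ldha, the form that favours lactate, fell by 0.26 with shMed4 #1 and 0.27 with shMed4 #4 on the log2 scale (edgeR adjusted p = 0.000117 and 3.84e-05). With the local median removed, Ldha gave -0.35 with shMed4 #1 and -0.46 with shMed4 #4. Ldhb, the heart-type form, gave a mean log2 fold change of -0.04 (edgeR adjusted p = 0.676). Slc16a1, a lactate and proton cotransporter, was at 112 ± 8.3 CPM with shMed4 #1 and 145 ± 2.4 CPM with shMed4 #4, against 107 ± 8.1 CPM in NTC (SD, n = 3 each). It rose by 0.44 with shMed4 #4 (edgeR adjusted p = 9.35e-08) and gave 0.07 with shMed4 #1 (edgeR adjusted p = 0.39), a difference of 0.37 between hairpins (edgeR adjusted p = 7.81e-06). Slc16a3, the exporter linked to strongly glycolytic cells, was low, at 7.34 ± 1.3 CPM with shMed4 #1 and 5.25 ± 1.3 CPM with shMed4 #4, against 5.15 ± 0.68 CPM in NTC (SD, n = 3 each). Its log2 fold change of 0.52 with shMed4 #1 (edgeR adjusted p = 0.0291) was lost without NTC replicate 1 (0.46) or 3 (0.47) and without shMed4 #1 replicate 2 (0.48) or 3 (0.40).

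Of the 4 regulators of the pathway, 1 rose and 3 fell for the mean of both hairpins, where 26.8% of all genes rose and 26.5% fell. Pfkfb3 and Pfkfb4 set the level of the sugar bisphosphate that activates phosphofructokinase. Pfkfb4 (ENSMUSG00000025648.18, chromosome 9, 108991778 to 109032228) was at 10.1, 8.71 and 10.9 CPM with shMed4 #1 and at 11.2, 12.2 and 10.4 CPM with shMed4 #4, against 3.86, 3.87 and 4.91 CPM in NTC. The hairpin groups overlapped each other and lay above all NTC libraries. Pfkfb4 rose by a log2 fold change of 1.23 with shMed4 #1 (SE 0.17, edgeR adjusted p = 3.3e-07) and of 1.41 with shMed4 #4 (SE 0.17, edgeR adjusted p = 5.44e-09). Pfkfb3 fell by 0.68 with shMed4 #4 (edgeR adjusted p = 8.74e-10) and by 0.19 with shMed4 #1 (edgeR adjusted p = 0.0318), with neighbours at a median of -0.29 and -0.27. Its fall with shMed4 #1 was lost without NTC replicate 2 (-0.18) or 3 (-0.17) and without shMed4 #1 replicate 2 (-0.18) or 3 (-0.18), and became 0.08 once the local median was removed, which left -0.39 with shMed4 #4. Per kilobase, Pfkfb4 made up 24.4% of both with shMed4 #1 and 34.2% with shMed4 #4, against 10.8% in NTC.

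Pyruvate dehydrogenase kinases switch off the entry of pyruvate into mitochondria-based oxidation. Pdk1 (ENSMUSG00000006494.11, chromosome 2, 71873224 to 71903858), a classical HIF target, was at 36.8, 34.5 and 36.2 CPM with shMed4 #1 and at 26.5, 25.1 and 26.2 CPM with shMed4 #4, against 51.4, 50.5 and 54.1 CPM in NTC. None of the groups overlapped. Pdk1 fell by 0.54 (SE 0.07, edgeR adjusted p = 2.19e-07) with shMed4 #1 and by 1.00 (SE 0.08, edgeR adjusted p = 1.2e-13) with shMed4 #4 on the log2 scale, with a difference between hairpins of -0.47 (SE 0.08, edgeR adjusted p = 3.39e-05). Pdk2 (chromosome 11, 95026258 to 95041354), a more broadly expressed kinase, was at 7.21, 8.83 and 10.2 CPM with shMed4 #1 and at 5.98, 5.09 and 5.52 CPM with shMed4 #4, against 7.96, 9.82 and 11.2 CPM in NTC. The shMed4 #1 libraries overlapped NTC and the shMed4 #4 libraries lay below both. Pdk2 fell by 0.80 with shMed4 #4 (SE 0.17, edgeR adjusted p = 0.000161), gave -0.14 with shMed4 #1 (edgeR adjusted p = 0.512), and differed between hairpins by -0.66 (SE 0.18, edgeR adjusted p = 0.00388).

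**Figure D3:**
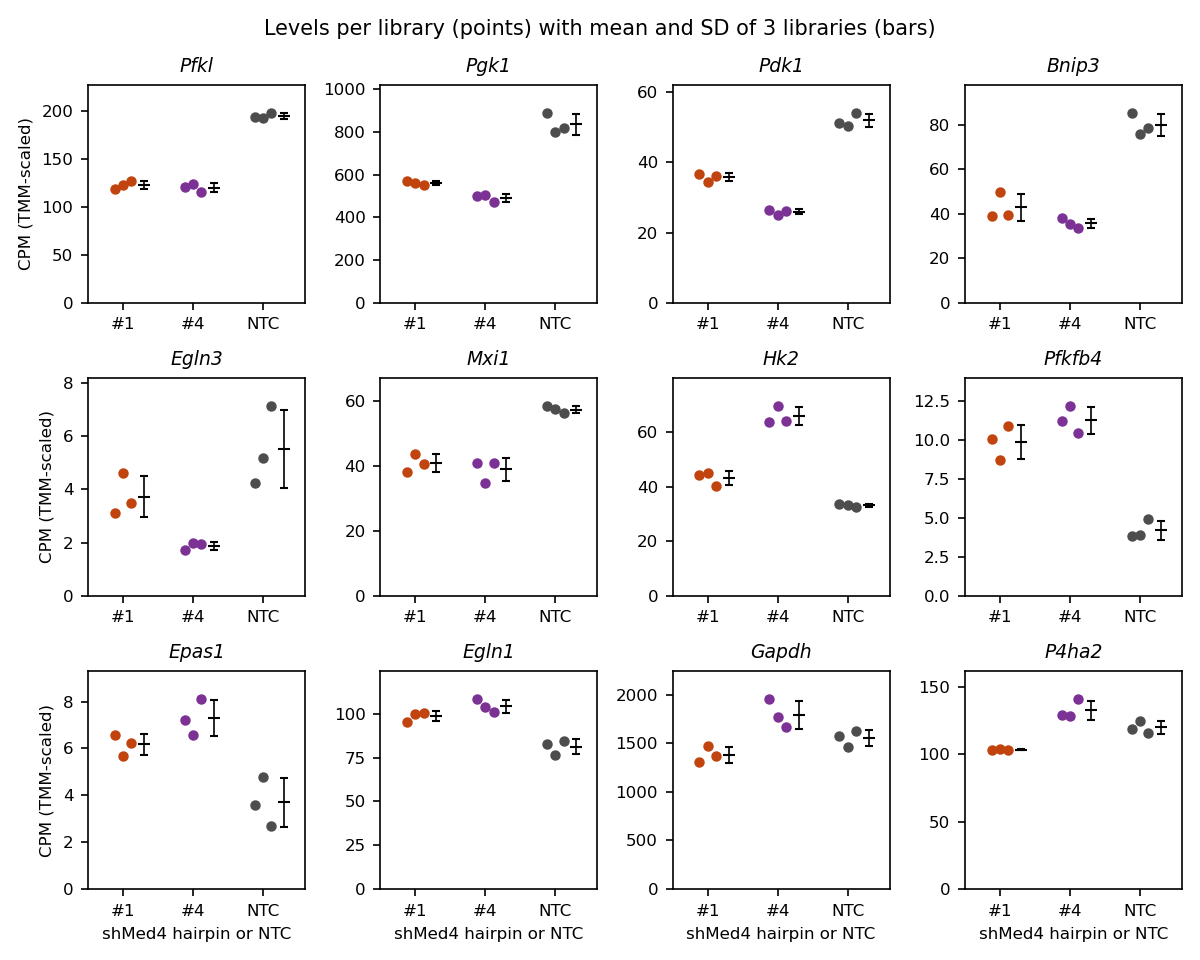
CPM (TMM-scaled, axes from 0) of 12 members in each library as points, with mean and SD of 3 libraries as bars, for shMed4 #1, shMed4 #4 and NTC. Pdk1 steps down to 25.1 to 26.5 CPM with shMed4 #4, against 50.5 to 54.1 CPM in NTC. P4ha2 has all shMed4 #1 libraries below NTC and all shMed4 #4 libraries above it. Gapdh has shMed4 #4 above NTC, while its shMed4 #1 libraries overlap NTC.

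Both HIF alpha subunits were higher on average. Hif1a (ENSMUSG00000021109.13, chromosome 12, 73901375 to 73947530), the widely expressed subunit, was at 346, 316 and 302 CPM with shMed4 #1 and at 352, 354 and 363 CPM with shMed4 #4, against 313, 307 and 305 CPM in NTC. The shMed4 #1 libraries spanned the NTC range, and the shMed4 #4 libraries lay above it. Hif1a rose by 0.21 with shMed4 #4 (SE 0.05, edgeR adjusted p = 0.000676) and gave 0.06 with shMed4 #1 (edgeR adjusted p = 0.37). The difference between hairpins was 0.15 (edgeR adjusted p = 0.0249) and was lost without shMed4 #1 replicate 2 (0.14) or 3 (0.11) and without shMed4 #4 replicate 3 (0.14). The mean rise of 0.13 over both hairpins was lost under upper-quartile scaling (0.10). With the local median removed, Hif1a gave 0.32 with shMed4 #4 and a difference of 0.28 between hairpins. RNA levels say nothing of the protein, whose stability is what oxygen controls.

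Epas1 (ENSMUSG00000024140.10, chromosome 17, 86753700 to 86833410), the second alpha subunit, was far less abundant. It was at 6.59, 5.69 and 6.25 CPM with shMed4 #1 and at 7.20, 6.58 and 8.09 CPM with shMed4 #4, against 3.61, 4.78 and 2.70 CPM in NTC. All 6 knockdown libraries lay above NTC. Epas1 rose by 0.74 (SE 0.21, edgeR adjusted p = 0.00357) with shMed4 #1 and by 0.98 (SE 0.20, edgeR adjusted p = 7.32e-05) with shMed4 #4. Per kilobase in NTC it was at 0.661 ± 0.19 RPKM, against 52.3 ± 0.69 RPKM for Hif1a (SD, n = 3).

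The prolyl hydroxylases, which tag the alpha subunits, moved apart. Egln1 (ENSMUSG00000031987.6, chromosome 8, 124908587 to 124949324), the main oxygen sensor, was at 95.6, 99.6 and 101 CPM with shMed4 #1 and at 108, 104 and 101 CPM with shMed4 #4, against 82.6, 76.3 and 84.6 CPM in NTC. All 6 knockdown libraries lay above NTC. Egln1 rose by 0.28 (SE 0.06, edgeR adjusted p = 0.000218) with shMed4 #1 and by 0.36 (SE 0.06, edgeR adjusted p = 2.71e-06) with shMed4 #4. The 25 tested neighbours on each side had a median log2 fold change of 0.22 with shMed4 #1 and 0.46 with shMed4 #4, and with that median removed Egln1 gave 0.06 and -0.09 in the same order, both below the threshold.

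Egln3 (ENSMUSG00000035105.5, chromosome 12, 54178981 to 54203860), a hydroxylase gene that is itself a HIF target, was at 3.11, 4.60 and 3.47 CPM with shMed4 #1 and at 1.71, 1.99 and 1.96 CPM with shMed4 #4, against 4.23, 5.17 and 7.12 CPM in NTC. These levels rest on 25, 38 and 30 reads with shMed4 #1, 14, 16 and 16 reads with shMed4 #4 and 34, 40 and 58 reads in NTC. The shMed4 #1 libraries overlapped NTC, and the shMed4 #4 libraries lay below all others. Egln3 fell by 1.54 with shMed4 #4 (SE 0.26, edgeR adjusted p = 3.25e-06) and by 0.56 with shMed4 #1 (SE 0.22, edgeR adjusted p = 0.0376), a difference of -0.98 (SE 0.28, edgeR adjusted p = 0.00661). The fall with shMed4 #1 was lost without NTC replicate 2 (-0.61) or 3 (-0.33) and without shMed4 #1 replicate 1 (-0.45) or 3 (-0.51), and the difference was lost without shMed4 #1 replicate 2 (-0.80).

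Among the mitochondrial HIF targets, Bnip3 and Bnip3l encode receptors of the outer membrane that mark mitochondria for removal. Bnip3 (ENSMUSG00000078566.8, chromosome 7, 138890836 to 138909519) was at 39.0, 49.8 and 39.3 CPM with shMed4 #1 and at 37.8, 35.3 and 33.7 CPM with shMed4 #4, against 85.2, 75.7 and 78.3 CPM in NTC. All 6 knockdown libraries lay below NTC. Bnip3 fell by 0.90 (SE 0.08, edgeR adjusted p = 3.69e-12) with shMed4 #1 and by 1.16 (SE 0.08, edgeR adjusted p = 3.25e-15) with shMed4 #4 on the log2 scale, to 53.6% and 44.6% of the NTC mean. The difference between hairpins of -0.26 (edgeR adjusted p = 0.0204) was lost without shMed4 #1 replicate 2 (-0.14) and without shMed4 #4 replicate 2 (-0.25) or 3 (-0.22).

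The Bnip3 locus has features that bear on its count. On the other strand, Gm45507 overlaps 22.3% of its exon length, and Gm45507, picked for that overlap, gave a log2 fold change of -0.85 with shMed4 #1 and -1.14 with shMed4 #4. Whether counting used strand is not given in the sources used here, so it is not known whether reads of the pair were told apart. Windows found at other loci made up 36.9% of Bnip3 exons, and the part of either in the fall was not tested. Bnip3l fell by 0.14 with shMed4 #1 (edgeR adjusted p = 0.0449) and by 0.29 with shMed4 #4 (edgeR adjusted p = 5.23e-05). The Bnip3l fall with shMed4 #1 was lost without NTC replicate 3 (-0.10), without shMed4 #1 replicate 1 (-0.13) or 3 (-0.11) and without shMed4 #4 replicate 2 (-0.14) or 3 (-0.14), and was -0.23 with the local median removed. Higd1a, a small protein of the inner mitochondrial membrane, gave a mean log2 fold change of -0.05 (edgeR adjusted p = 0.605), beside neighbours at 0.25 with shMed4 #1 and 0.27 with shMed4 #4, and -0.31 and past the threshold with that local median removed. Gm47112 on the other strand overlaps 22.5% of the exon length of Higd1a.

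Of the other HIF targets, Mxi1, a MAX partner that opposes MYC, changed most. Mxi1 (ENSMUSG00000025025.14, chromosome 19, 53310518 to 53375810) was at 38.0, 43.7 and 40.6 CPM with shMed4 #1 and at 40.98, 34.8 and 40.9 CPM with shMed4 #4, against 58.3, 57.3 and 56.2 CPM in NTC. The hairpin groups overlapped each other and lay below NTC. Mxi1 fell by 0.49 (SE 0.08, edgeR adjusted p = 1.77e-06) with shMed4 #1 and by 0.56 (SE 0.08, edgeR adjusted p = 9.3e-08) with shMed4 #4. Kdm3a, an oxygen-dependent histone demethylase, fell by 0.23 with shMed4 #1 and 0.36 with shMed4 #4, or by 0.34 and 0.54 in the same order with the local median removed.

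P4ha1 and P4ha2 encode alternative catalytic subunits of collagen prolyl hydroxylase. P4ha2 (ENSMUSG00000018906.14, chromosome 11, 54100095 to 54131665) was at 104, 104 and 103 CPM with shMed4 #1 and at 129, 128 and 141 CPM with shMed4 #4, against 119, 125 and 116 CPM in NTC. The 3 groups did not overlap, with NTC in between. P4ha2 fell by 0.21 with shMed4 #1 (SE 0.06, edgeR adjusted p = 0.00264) and rose by 0.15 with shMed4 #4 (SE 0.06, edgeR adjusted p = 0.0252), and the rise was lost under upper-quartile scaling (0.10), without NTC replicate 1 (0.14) or 3 (0.12) and without shMed4 #4 replicate 3 (0.11), and was 0.22 with the local median removed. P4ha1 gave 0.08 with shMed4 #1 (edgeR adjusted p = 0.192) and -0.09 with shMed4 #4 (edgeR adjusted p = 0.119), and differed between hairpins by -0.18 (edgeR adjusted p = 0.00759), a call lost without shMed4 #4 replicate 3 (-0.13). With the local median removed, P4ha1 gave -0.33 with shMed4 #4, past the threshold, and a difference of -0.33 between hairpins.

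The remaining targets were mixed. Ddit4, an inhibitor of the growth kinase mTORC1, rose by 0.22 with shMed4 #1 and 0.16 with shMed4 #4, but its value with shMed4 #4 was lost under upper-quartile scaling (0.12), without NTC replicate 2 (0.17) or 3 (0.13) and without shMed4 #4 replicate 2 (0.14), and became -0.03 with the local median removed. Ndrg1, a stress-responsive gene, rose by 0.30 with shMed4 #4 (edgeR adjusted p = 8.93e-05) and gave 0.09 with shMed4 #1 (edgeR adjusted p = 0.245). Its call with shMed4 #4 was lost with the local median removed (0.14), and its difference of 0.21 between hairpins (edgeR adjusted p = 0.00983) was lost without shMed4 #1 replicate 1 (0.16) or 3 (0.19) and without shMed4 #4 replicate 2 (0.17). Ankrd37, an ankyrin repeat gene, gave a mean log2 fold change of -0.30 (edgeR adjusted p = 0.189). Lrp2bp on the other strand overlaps 22.7% of the exon length of Ankrd37. Car9, the cell-surface carbonic anhydrase widely used as a hypoxia marker, was at 2.83 ± 0.63 CPM with shMed4 #1 and 1.89 ± 0.31 CPM with shMed4 #4, against 2.47 ± 0.55 CPM in NTC (SD, n = 3 each), and gave a mean log2 fold change of -0.09 (95% interval -0.58 to 0.39, edgeR adjusted p = 0.782). Adm, the peptide adrenomedullin, was not tested, with 0, 1 and 0 reads with shMed4 #1, 0 reads in each shMed4 #4 library and 1, 2 and 1 in NTC. Summed over 12 HIF targets outside glycolysis, the level was 245 ± 9.6 RPKM with shMed4 #1 and 236 ± 4.0 RPKM with shMed4 #4, against 261 ± 1.3 RPKM in NTC (SD, n = 3 each), with every knockdown library below every NTC library. Without Bnip3 the sum over the other 11 was 226 ± 6.9 RPKM with shMed4 #1 and 220 ± 3.1 RPKM with shMed4 #4, against 226 ± 1.3 RPKM in NTC (SD, n = 3 each). The shMed4 #1 libraries then spanned the NTC range, and the shMed4 #4 libraries still lay below it.

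Set against each other, the hairpins differed for 14 of the 38 tested members, where 28.0% of all genes differed. Of these, 6 were higher with shMed4 #4 than with shMed4 #1, against 14.2% of all genes, and 8 were lower, against 13.9%. Higher with shMed4 #4 were Slc16a1, Hk2, Gapdh, Hif1a, Ndrg1 and P4ha2. Lower with shMed4 #4 were Pfkp, Pgk1, Pfkfb3, Pdk1, Pdk2, Egln3, Bnip3 and P4ha1. Of the 21 members that passed in the same direction with both hairpins, 17 had the larger change with shMed4 #4, or 81.0%, and 3632 of 4771 such genes over the whole data, or 76.1%. Med4 itself was at 16.5% of its NTC mean with shMed4 #1 and at 26.3% with shMed4 #4.

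**Figure D4:**
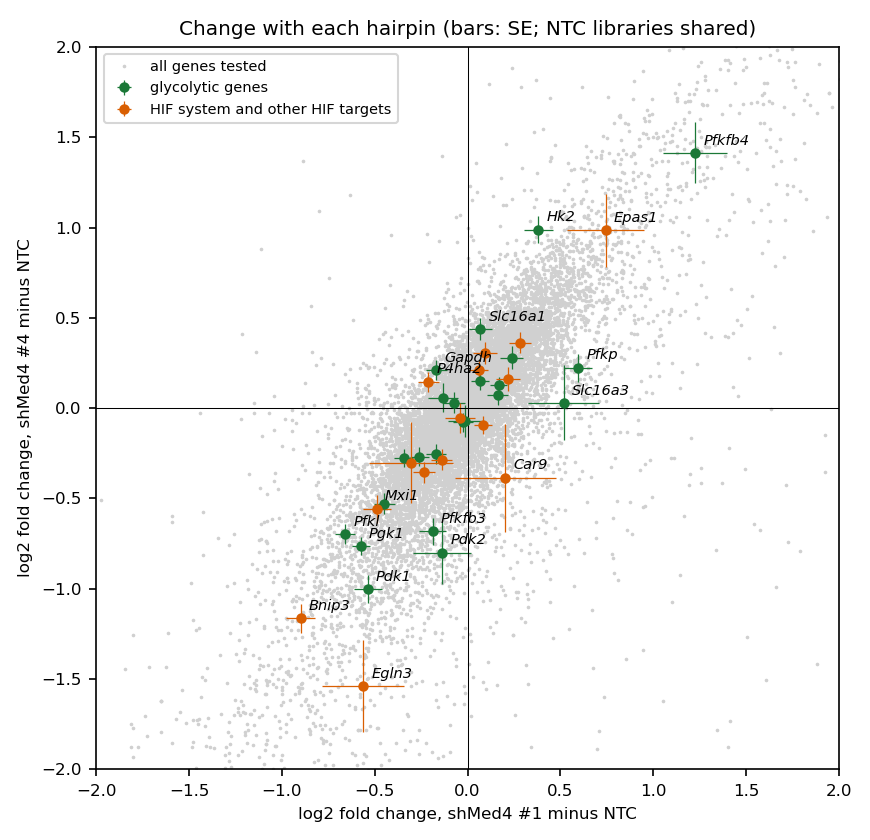
Log2 fold change with shMed4 #4 (vertical axis) against that with shMed4 #1 (horizontal axis), both against the same NTC libraries, for the 38 tested members (coloured, bars are SE) over all genes tested (grey, those beyond 2 on either axis not drawn). Egln3 lies at -0.56 and -1.54 and Pfkfb4 at 1.23 and 1.41, while Gapdh and P4ha2 lie above 0 on the vertical axis and below 0 on the horizontal axis.

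Genes of the pathways around these members were read from lists, in the comparison of the mean of both hairpins with NTC, in which 26.8% of all genes tested rose and 26.5% fell (53.3% in either direction). Of 17 other glycolytic genes tested, 8 rose and 2 fell, with a median log2 fold change of 0.17. They included Adpgk, the ADP-dependent glucokinase (0.57), Eno3, the muscle enolase (0.33), Galm, the sugar mutarotase (1.16), and Slc2a4, the insulin-responsive transporter, from very few reads (2.53). Of 11 genes of glycogen and hexose entry, 6 rose and 1 fell, among them Gyg, the primer of glycogen (0.89), Gfpt1, the first enzyme of hexosamine synthesis (0.67), Pygb, a glycogen phosphorylase (0.29), and Gaa, the lysosomal glucosidase (-0.25). Of 7 pentose phosphate genes, 2 rose and 4 fell, including G6pdx, the first enzyme (-0.26), Pgls, the lactonase (-0.49), Tkt, transketolase (-0.28), and Rpe, the epimerase (0.22).

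The mitochondrial fate of pyruvate was also covered, against the same 26.8% of all genes that rose and 26.5% that fell. Of 11 genes of the pyruvate dehydrogenase complex and pyruvate entry, 1 rose and 5 fell. Mpc1, a subunit of the mitochondrial pyruvate carrier, gave a mean of -0.50, with -0.18 with shMed4 #1 (edgeR adjusted p = 0.115) and -0.82 with shMed4 #4 (edgeR adjusted p = 1.24e-08). Pcx, pyruvate carboxylase, rose by 0.36, while Pdp2, the phosphatase that counters the kinases, fell by 0.29 and Pdha1, the catalytic subunit, fell by 0.18. Of 18 genes of the tricarboxylic acid cycle, 9 rose and 5 fell, and among those with the smallest p were Idh3a (0.57), a subunit of isocitrate dehydrogenase, and Suclg2 (0.59) and Suclg1 (0.46), subunits of succinyl-CoA ligase.

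Of 14 other HIF regulators tested, 3 rose and 5 fell, where 26.8% and 26.5% of all genes did. Hif1an, the asparagine hydroxylase that blocks HIF activity, fell by 0.39 with shMed4 #1 and by 1.10 with shMed4 #4. Siah1a, a ubiquitin ligase, fell by 0.91 with the mean of both hairpins, beside neighbours at -0.43 with shMed4 #1 and -0.45 with shMed4 #4. Cited2, which competes with HIF for coactivators, fell by 0.46 and Crebbp, a coactivator, by 0.40. Of 39 other HIF targets tested, 11 rose and 16 fell, against the same 26.8% and 26.5%. Among those with the smallest p, Car12, a carbonic anhydrase (3.36), Dtna, a dystrobrevin (1.67), and Bhlhe40, a transcriptional repressor (0.81), rose. All genes tested had a median of -0.01 in the same comparison, and the median of the other HIF targets was -0.09.

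**Figure D5:**
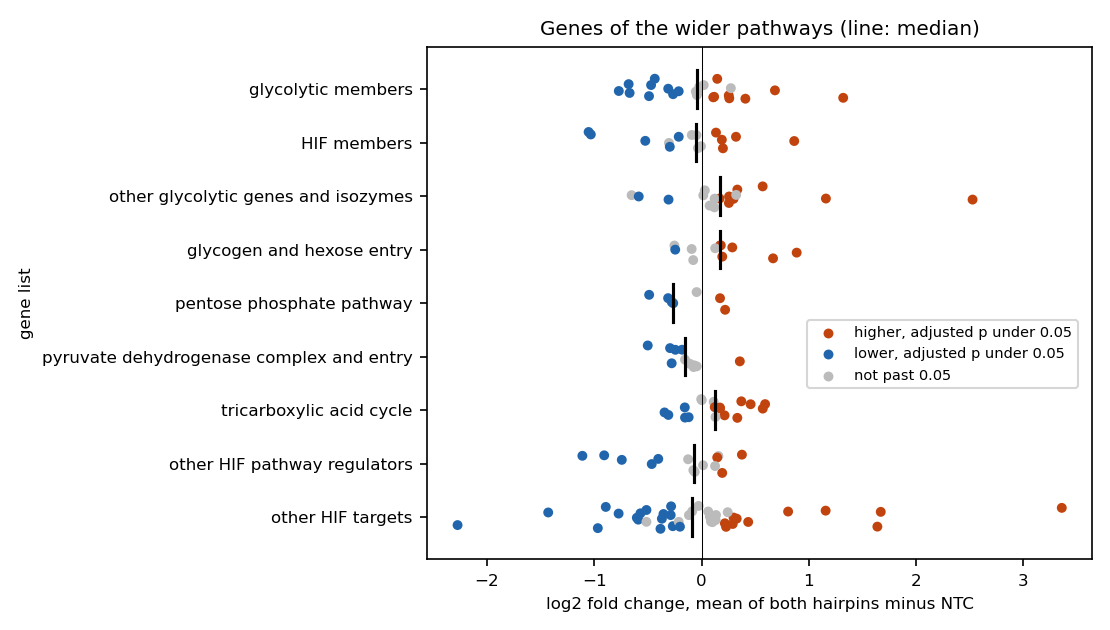
Log2 fold change of the mean of both hairpins against NTC (horizontal axis) for each tested gene of the members and of the wider pathway lists (rows), coloured by call, with the list median as a line. Car12 stands at 3.36 among the other HIF targets, and the medians of the lists lie between -0.26 and 0.17.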

How the data were processed

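Per the labels' protocols, total RNA was isolated from cultured cells and libraries ran on a BGISEQ-500. The submitters' processing notes name STAR, HTSeq and the build mm10 (GRCm38), without versions, annotation release or strand setting. The deposited values are raw read counts per gene. Summary lines that name no gene were left out. Of all records, 49.5 to 51.6% were assigned to no gene, 10.5 to 11.6% aligned to several places and 0.863 to 0.951% were ambiguous. Of 55335 identifiers, 55154 matched a symbol. Aldoa matched 2, and the identifier with more reads was used. Coordinates and exon lengths are from GENCODE M21, and all 41 members are annotated there as protein-coding.

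The test was that of edgeR 4.0.16 in R 4.3.3 (filterByExpr with a minimum count of 10, TMM factors of 0.969 to 1.03, glmQLFit and glmQLFTest on 1 model of the 3 groups, common biological coefficient of variation 0.0433). Benjamini-Hochberg adjustment ran over 14335 genes with a threshold of 0.05. The steps were also run on simulated counts, and the outcome is not given here. Replicate libraries of a group differed by more than counting noise, with a chi-square of 1.53 to 2.95 per degree of freedom. Precision from depth covers counting error only.

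The members and pathway lists were chosen with earlier results of these data known. Every member may be named. Single library values are given for members past the threshold in the same direction with both hairpins and their mean, with a mean log2 fold change of at least 0.5 in size, for members moving in opposite directions or differing by at least 0.5 between hairpins, and for Hif1a, Epas1, Egln1 and Egln3. From other lists up to 4 genes with the smallest adjusted p are named, except for some genes not reported here. The alternatives tried were DESeq2 1.42.0, its size factors, upper-quartile scaling, limma-voom (limma 3.58.1), other count filters (1 CPM in 3 libraries, or none), fits restricted to the libraries compared (for the mean, all libraries with both hairpins pooled as 1 group), the replicate number as a block, a threshold of 0.01, removal of the local chromosomal median (25 tested genes on each side) and leaving out each library.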

Additional observations from a re-analysis of the deposited data

Results flagged for a closer look

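Gapdh and P4ha2 passed the threshold in opposite directions with the hairpins, and the difference itself was tested. For Gapdh, shMed4 #4 minus shMed4 #1 was 0.38 on the log2 scale (SE 0.06, edgeR adjusted p = 1.4e-06), and 0.18 with the local chromosomal median removed. Windows of 50 bases found at other loci made up 24.7% of Gapdh exons, and its neighbours had a median log2 fold change of 0.08 with shMed4 #1 and 0.27 with shMed4 #4. For P4ha2 the difference was 0.36 (SE 0.06, edgeR adjusted p = 4.98e-06), with neighbours at -0.02 and -0.08 in the same order. The part of these local values in either difference was not tested.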

How the results depend on the processing

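DESeq2 size factors, limma-voom and the 1 CPM filter changed none of the 152 calls of members (38 genes in 4 comparisons). The DESeq2 test lost 7 calls past the threshold, and the fit without a count filter lost 3. Upper-quartile scaling lost 8 and gained 4, and fits restricted to the libraries compared lost 7 and gained 1. The replicate block lost 2 and gained 1, and the threshold of 0.01 lost 17. Removal of the local median lost 10, gained 16 and reversed the sign of 13. Members called higher with shMed4 #4 numbered 14, against 9 at a threshold of 0.01 and 7 with the local chromosomal median removed. Over all 14335 genes tested, 3988 were higher with shMed4 #4, against 3287 and 3701 in the same order. Members called higher with the mean of both hairpins numbered 13, against 8 when both hairpins were pooled as 1 group and 8 with the local median removed. Over all genes, 3848 were higher with the mean, against 2987 and 3445 in the same order. Between the hairpins 8 members were lower with shMed4 #4, against 14 with the local median removed. Over all genes 1988 were lower with shMed4 #4, against 1840 with the local median removed. Over all genes 2029 were higher and 1988 lower, against 1284 and 1289 at a threshold of 0.01. The cause was not tested beyond what the stricter threshold itself sets.

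Changes of sign in values past the threshold before or after the change of setting came with removal of the local median and with no other alternative. Values past it in neither case changed sign 7 times with that removal and 37 times under the others. Pfkm then gave -0.051 with shMed4 #1, -0.32 with shMed4 #4 and -0.18 for the mean, and Pfkfb3 0.077 with shMed4 #1. Gapdh gave -0.064 with shMed4 #4 and -0.16 for the mean, Pkm -0.031 and -0.037, and Egln1 -0.095 and -0.016, with -0.16 between hairpins. Ldhb gave -0.25 and Ddit4 -0.031 with shMed4 #4. Calls gained in the same way for the mean were those of Slc16a3 (0.44), Ldhb (-0.29), Higd1a (-0.31) and P4ha1 (-0.17). The cause was not tested. The local median entered these fits as a fixed value, so their adjusted p-values carry no error for the median itself.

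Leaving out each library in turn gave 8 to 10 members higher and 10 to 15 lower with shMed4 #1, 10 to 14 and 14 to 15 with shMed4 #4, 11 to 13 and 13 to 14 for the mean, and 4 to 6 and 6 to 9 between hairpins. Over all genes, of which 14585 to 14645 were then tested, 2705 to 3217 were higher and 2421 to 2928 lower with shMed4 #1. With shMed4 #4 these ranges were 3654 to 4172 and 3541 to 4011. They were 3384 to 3973 and 3335 to 3830 for the mean, and 1659 to 2097 and 1603 to 2032 between hairpins. With the replicate number as a block, 10 members were higher and 14 lower with shMed4 #1, 14 and 14 with shMed4 #4, 12 and 14 for the mean, and 6 and 9 between hairpins. Over all genes, 3060 were then higher and 2768 lower with shMed4 #1, and 3949 and 3858 with shMed4 #4. The counts were 3798 and 3739 for the mean, and 1945 and 1914 between hairpins. Libraries with the same number correlated in their deviations at -0.06 to 0.04, and those with different numbers at -0.07 to 0.06. No shared effect of the number was visible, which does not tell whether equal numbers mark libraries prepared together. The fall of Pdk2 for the mean was lost without NTC replicate 3 (-0.35). The sums without Pgk1 and without Bnip3 were added after the data were seen. Depth limits Slc2a3, Aldoc and Adm, which were not tested, and Egln3, Epas1, Car9, Slc16a3 and Pfkfb4, with few reads per library.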
